A study of Homo sapiens with 10 samples.

Results

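The genes described here are 10 immediate early genes and subunits of the transcription factor AP-1, IER2, IER3, IER5, JUN, JUNB, JUND, FOS, EGR1, KLF10 and KLF6, in MOLT-4 cells treated with an antibody against CD47. They were chosen by name. All 18 probe sets carrying 1 of these symbols in the platform annotation were taken, and the 10 genes stand among 11963 genes with a probe set of a single symbol. The 10 arrays held 2 replicates at each of 5 times, the 0 h samples and those taken after 0.5, 1, 3 and 6 h with the antibody. The labels give 10 ug/mL of MABL, the antibody, and 50 ug/mL of a second agent named only as GAM for all 10 samples, the 0 h samples among them. MOLT-4 is a human T-cell leukaemia line, grown here as 1 line. No untreated cells kept for the same time were analysed here, so antibody, time in culture and handling cannot be told apart, and nothing says that the replicates were separate cultures, so the p-values reflect the scatter of these arrays alone, which may be technical.

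Immediate early genes are transcribed within minutes of a stimulus, from factors already present in the cell and without new protein synthesis, and most are switched off again soon after. Many encode transcription factors. AP-1 is a dimer of a JUN family protein (JUN, JUNB or JUND) with another JUN or a FOS family protein, and in T cells it takes part in the response to the antigen receptor. EGR1, KLF10 and KLF6 are zinc finger factors, and IER2, IER3 and IER5 are small proteins of the early response.

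Levels below are the deposited values after a square root, taken to be on a log2 scale. A probe set was tested when at least 2 arrays reached a deposited value of 25, a level of 5. This filter was passed by 5 of the 18 probe sets, 1 each for IER2, IER3, IER5, JUND and KLF10, and by 4276 (19.2%) of the 22215 probe sets that are not array controls. The other 13 probe sets, among them all those of JUN, JUNB, FOS, EGR1 and KLF6, stayed under it on every array. Nearest to the limit were IER3 on the inner side, whose highest deposited value was 34.2, and EGR1 and JUNB on the outer side, at 18.9 and 18.6. IER3 passed only through its 6 h arrays, so that the differences of 6 h from 0 h and from 3 h were in part set by the filter.

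Promoter sequence is shown for IER2 and JUND, which rose at different times, and for EGR1, the textbook target of serum response factor, whose level stayed low. Each line gives the 250 bases before the transcript start, 5′ to 3′ on the gene's own strand, from RefSeq on GRCh38.p14, where 8 of the 10 genes were matched. Capitals mark the elements searched on both strands.
IER2, chr19:13150161-13150410, plus strand: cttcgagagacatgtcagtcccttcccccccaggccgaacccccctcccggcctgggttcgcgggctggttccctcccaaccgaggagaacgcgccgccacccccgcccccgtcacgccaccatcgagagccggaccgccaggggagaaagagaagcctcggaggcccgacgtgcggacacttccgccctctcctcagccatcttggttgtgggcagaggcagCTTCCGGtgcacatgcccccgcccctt
JUND, chr19:18281623-18281872, minus strand: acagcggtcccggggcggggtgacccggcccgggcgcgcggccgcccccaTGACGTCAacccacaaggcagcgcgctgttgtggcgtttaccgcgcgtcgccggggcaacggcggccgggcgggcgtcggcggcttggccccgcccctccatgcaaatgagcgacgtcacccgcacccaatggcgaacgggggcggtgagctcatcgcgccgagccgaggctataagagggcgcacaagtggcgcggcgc
EGR1, chr5:138465229-138465478, plus strand: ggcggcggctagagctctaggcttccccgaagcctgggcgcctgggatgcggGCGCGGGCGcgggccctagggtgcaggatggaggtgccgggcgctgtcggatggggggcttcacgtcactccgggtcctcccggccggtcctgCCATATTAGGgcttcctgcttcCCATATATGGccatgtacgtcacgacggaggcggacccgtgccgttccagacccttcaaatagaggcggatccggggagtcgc
The IER2 promoter held 1 ETS core (CCGGAAG), 21 bases before the start, and this element stood in 8.52% of 35116 promoter windows of the same length. The JUND promoter held 1 cyclic AMP response element (TGACGTCA), found in 1.65% of all windows. The EGR1 promoter held 2 serum response element cores (CArG boxes), found in 1.16% of windows, and 1 EGR element (GCGNGGGCG), found in 8.41%. The KLF6 promoter also held an EGR element, and the AP-1 element (TGACTCA, reverse complement TGAGTCA) was in none of the 8 windows, against 4.2% of all. These letters describe the windows and no more.

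IER2, a nuclear protein that regulates transcription, was the member that rose within 1 h. Its levels were 6.81 and 7.46 at 0 h, 7.61 and 7.45 at 0.5 h, 8.68 and 8.32 at 1 h, 7.58 and 6.95 at 3 h, and 7.97 and 8.16 at 6 h. Both 1 h arrays were the highest of the 10, the 3 h arrays lay across the range of the 0 h arrays, and both 6 h arrays were above 0 h again. At 1 h IER2 averaged 8.50 ± 0.25, against 7.13 ± 0.45 at 0 h (SD, n = 2 each), a rise of 1.37 on the log2 scale or 2.58-fold (SE 0.264, limma adjusted p = 0.00618). It was 1 of 9 probe sets (0.210% of those tested) whose 2 arrays at 1 h both lay more than 2-fold above the mean of the 0 h arrays, the submitters' fold rule. The submitters' rule was not met at 6 h, when IER2 averaged 8.07 ± 0.14 and was higher than at 0 h by 0.93 (SE 0.264, adjusted p = 0.0344). This later call was lost under 9 of 19 alternatives, among them the fits without 0 h replicate 1 (0.61, adjusted p = 0.207), without either 0.5 h array (0.0545) and without 6 h replicate 1 or 2 (0.0938 and 0.132), against 0.00247 to 0.702 over all 19.

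**Figure D1:**
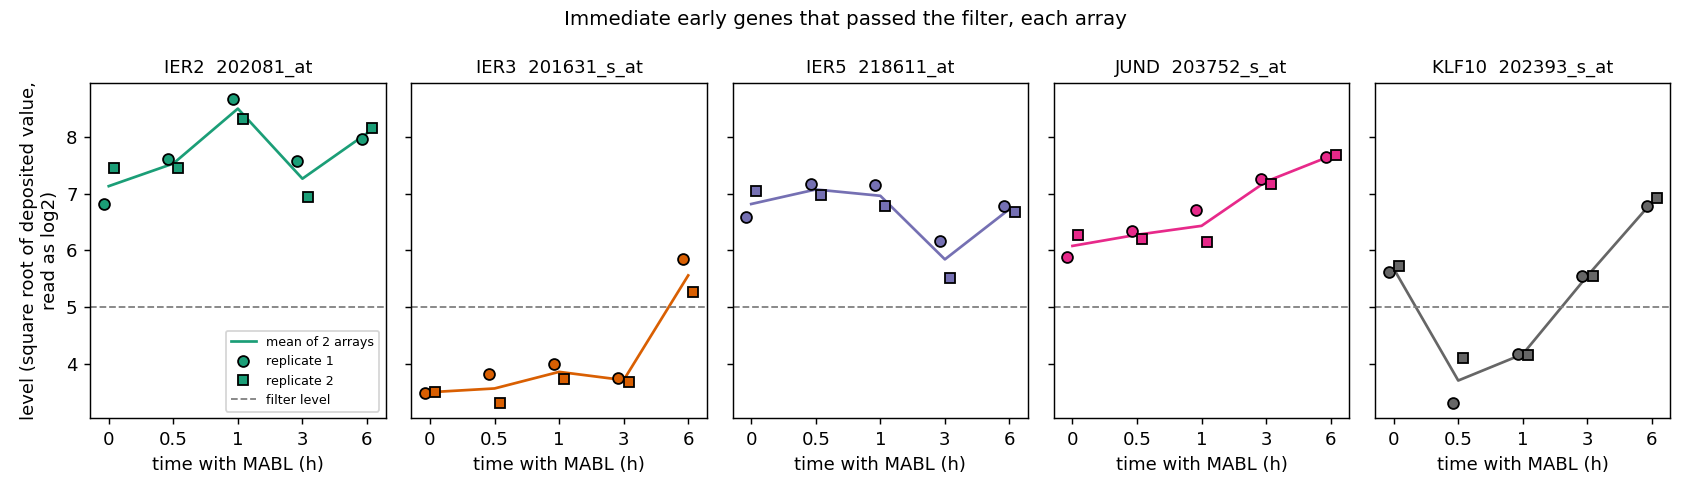
Level on each array (square root of the deposited value, read as log2) against time with MABL in hours for the 5 member probe sets that passed the filter; circles and squares are replicates 1 and 2, lines join the means of 2 arrays, and the dashed line is the filter level of 5. IER2 was highest at 1 h, KLF10 lowest at 0.5 h and highest at 6 h, IER5 lowest at 3 h, and JUND and IER3 highest at 6 h.

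In order of its means, IER2 ran 0 h, 3 h, 0.5 h, 6 h and 1 h. The 3 h mean of 7.27 ± 0.45 was lower than that of 1 h by a log2 difference of -1.23 (SE 0.264, adjusted p = 0.0456), the 1 h arrays lying above the 3 h arrays without overlap, as was so, in either direction, for 50.7% of tested probe sets; 1.82% were called lower and 1.94% higher. That call rested on a narrow margin: leaving out any 1 of the 10 arrays ended it (adjusted p = 0.0523 to 0.213, and 0.00608 to 0.307 over all 19 alternatives). The steps of 1 h against 0.5 h (0.97, adjusted p = 0.218, with 0.0468% of probe sets called) and 6 h against 3 h (0.80, adjusted p = 0.115) did not pass the test. At 0.5 h and 3 h IER2 differed from 0 h by 0.40 and 0.13 (adjusted p = 0.371 and 0.757).

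Calls against 0 h were common on these arrays and lay mostly in the downward direction. Between 1 h and 0 h 28.4% of the tested probe sets passed the test, 4.14% upward and 24.2% downward, and the arrays of both times did not overlap for 68.4% of them. The signals of the arrays as a whole moved too. In order of the 5 times, the mean level of the 18S ribosomal RNA control was 9.10 ± 0.90, 10.53 ± 0.37, 10.76 ± 0.68, 11.27 ± 0.69 and 11.68 ± 0.49, and that of the spike-in controls 10.00 ± 0.29, 10.27 ± 0.28, 10.25 ± 0.19, 10.76 ± 0.034 and 10.63 ± 0.032 (SD, n = 2). The median level of the tested probe sets stood lower than at 0 h by a log2 difference of -0.13, -0.29, -0.31 and -0.25 at 0.5, 1, 3 and 6 h. The median of the changes of single probe sets was nearer to no change, at 0.015, -0.025, -0.146 and -0.143. With equal array medians the rise of IER2 was 1.65 at 1 h and 1.18 at 6 h. Under this setting the median change of all tested probe sets at 1 h was 0.26, so that rises called at 1 h under it carry this upward shift. With the 18S level as a covariate it was 1.24 at 1 h and was not called (adjusted p = 0.149, against 0.000205 to 0.149 over 19 alternatives), in a fit where 142 probe sets were called at this time in place of 1213. Without the filter the rise was not called either (adjusted p = 0.0614). What part the control levels had in the result was not tested. As to the labelled cell type, 12 of 15 T-lineage markers, among them CD3D and LCK, and 0 of 9 markers of other blood cells were at the filter level on all 10 arrays. CD7, CD2 and CD4 were under it, and of 3 markers of other lineages COL1A1, read by a probe set of the less specific x type, was above it. PTCRA, among the 12 T-lineage markers, was also read by an x-type probe set. So were CD7, MS4A1, KLRD1, HBB and KRT18, all under the filter level. In bulk RNA, fewer cells with a transcript and less transcript per cell cannot be told apart.

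KLF10, a zinc finger repressor first known as an early gene induced by TGF-beta, moved the opposite way in the first hour and then rose. Its levels were 5.63 and 5.73 at 0 h, 3.31 and 4.10 at 0.5 h, 4.18 and 4.16 at 1 h, 5.56 and 5.55 at 3 h, and 6.78 and 6.92 at 6 h. The arrays of 0.5 h and 1 h lay below all others, those of 6 h above all others, and those of 3 h just under those of 0 h. At 0.5 h KLF10 averaged 3.71 ± 0.56, against 5.68 ± 0.071 at 0 h (SD, n = 2 each), and fell by 1.97 on the log2 scale (SE 0.219, adjusted p = 0.00365). At 1 h it was lower by a log2 difference of -1.51 (SE 0.219, adjusted p = 0.00193). It was the 1 member called at 0.5 h, when 17.0% of tested probe sets were called and 15.1% were called lower, and the arrays of 0.5 h and 0 h did not overlap for 60.6%. Its arrays also met the fold rule downward at 0.5 h and 1 h, as did 5.99% and 11.4% of tested probe sets.

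The mean of KLF10 at 3 h differed from that at 0 h by -0.13 (SE 0.219, adjusted p = 0.713), with a 95% half-width of 0.505. At 6 h it averaged 6.85 ± 0.10, higher than at 0 h by 1.17 or 2.25-fold (SE 0.219, adjusted p = 0.00756). Both later steps were called, 1.38 for 3 h against 1 h (adjusted p = 0.0229) and 1.30 for 6 h against 3 h (adjusted p = 0.0132), where 3.77% and 7.09% of tested probe sets were called. The first step lost its call without any 1 of the arrays of 1 h or 3 h, without the filter and on log2 of the deposited values. It also lost it with the spike-in covariate (adjusted p = 0.292, the highest over 19 alternatives). The second step lost its call without 3 h replicate 2 or 6 h replicate 2 and on log2 of the deposited values. The same held without the filter (adjusted p = 0.114, the highest over 19 alternatives). In order of its means KLF10 ran 0.5 h, 1 h, 3 h, 0 h and 6 h, with no call between the lowest pair (0.46, adjusted p = 0.424). The levels at 0.5 h and 1 h were under the filter level. With every value floored at 5 both falls were -0.68 and still called (adjusted p = 0.00418 and 0.00146, against ranges of 0.000364 to 0.0560 and 0.000965 to 0.0488 over 19 alternatives). Leaving out 0 h replicate 1 ended the call of the 6 h rise (1.12, adjusted p = 0.0565), as did fitting without the filter, on log2 of the deposited values or with the spike-in or 18S level as covariate (0.59 and 0.89 with the covariates). The 18S covariate also ended the call of the fall at 0.5 h (-2.13, adjusted p = 0.0560). The adjusted p of the 6 h rise lay between 0.00043 and 0.510 over 19 alternatives.

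JUND, the AP-1 subunit that is present in resting cells, rose late and stayed up. The levels of its brightest probe set were 5.88 and 6.28 at 0 h, 6.35 and 6.21 at 0.5 h, 6.72 and 6.15 at 1 h, 7.26 and 7.17 at 3 h, and 7.66 and 7.68 at 6 h. All 4 arrays of 3 h and 6 h were above all 6 arrays of the earlier times, while those of 0, 0.5 and 1 h overlapped. At 3 h JUND averaged 7.22 ± 0.067, against 6.08 ± 0.28 at 0 h (SD, n = 2 each), a rise of 1.13 or 2.20-fold (SE 0.196, adjusted p = 0.00523). At 6 h it averaged 7.67 ± 0.015 and the rise was 1.59 or 3.00-fold (SE 0.196, adjusted p = 0.00193). Both replicates passed the fold rule at both of these times, which 0.304% and 0.935% of tested probe sets did upward. At these times 28.9% and 25.7% of probe sets were called in either direction, and the arrays did not overlap with those of 0 h for 68.5% and 66.5%.

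The mean of JUND was higher at each later time, but no single step was called: 0.16 for 1 h against 0.5 h (adjusted p = 0.786), 0.78 for 3 h against 1 h (adjusted p = 0.0708) and 0.45 for 6 h against 3 h (adjusted p = 0.227). With equal array medians the changes from 0 h were 0.64 at 1 h, then called (adjusted p = 0.0134), 1.45 at 3 h and 1.83 at 6 h. The means of both control levels, spike-in and 18S, were higher at 3 h and 6 h than at the earlier times, though the 18S level of 3 h replicate 1 (10.78) was under that of 1 h replicate 1 (11.24), and with them as covariates the 3 h change was 0.64 and 0.69 and the 6 h change 1.17 and 1.06, with no call (adjusted p = 0.174 to 0.482, the lowest over the 19 alternatives being 0.000428 at 3 h and 6.17e-05 at 6 h). In these fits none of 4276 probe sets was called at 3 h by limma, with 564 and 521 at an unadjusted p under 0.05. The other JUND probe sets, both of the x type, ran between 2.35 and 2.39 and between 2.95 and 3.02 over the 10 arrays, under the filter and with no such course.

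**Figure D2:**
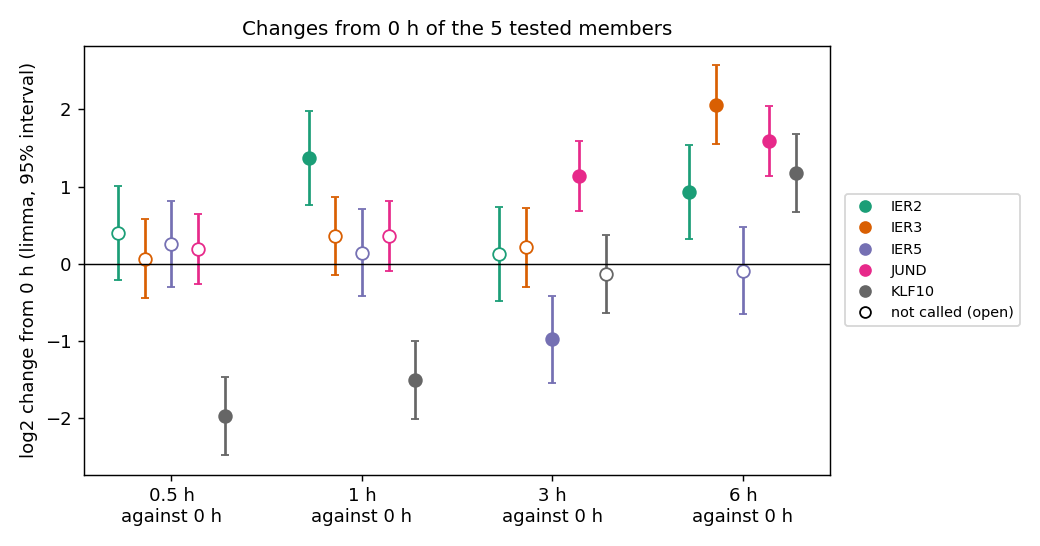
Log2 change from 0 h with its 95% interval from limma (vertical axis) for the 5 tested members at 0.5, 1, 3 and 6 h against 0 h; filled points were called at an adjusted p under 0.05 and open points were not. KLF10 lay below 0 at 0.5 h and 1 h and above it at 6 h, IER2 above 0 at 1 h and 6 h, and IER5 below 0 at 3 h.

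IER3, a small protein that affects survival and NF-kB and ERK signalling, rose at 6 h. Its levels were 3.49 and 3.51 at 0 h, 3.82 and 3.32 at 0.5 h, 4.00 and 3.73 at 1 h, 3.75 and 3.68 at 3 h, and 5.85 and 5.27 at 6 h. The 8 arrays up to 3 h were all under the filter level and both 6 h arrays above it. The 6 h mean was 5.56 ± 0.41, against 3.50 ± 0.015 at 0 h (SD, n = 2 each), a rise of 2.06 (SE 0.221, adjusted p = 0.00113). The rise over 3 h was 1.84 (adjusted p = 0.00378). In the fit without the filter the adjusted p was 0.0130 for the rise over 0 h and 0.0428 for that over 3 h. With every value floored at 5 the rise over 0 h was 0.56 (adjusted p = 0.0415) and that over 3 h, also 0.56, was not called (adjusted p = 0.0938), against adjusted p = 3.87e-05 to 0.220 and 0.000264 to 0.0938 over 18 alternatives. With the spike-in and 18S covariates the 6 h rise was 2.28 and 1.84, not called. Its differences from 0 h at 0.5, 1 and 3 h were 0.07, 0.36 and 0.21 (adjusted p = 0.894, 0.280 and 0.524), and with equal array medians that at 1 h was 0.645 and called (adjusted p = 0.0249).

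IER5, which in human cells binds the phosphatase PP2A and acts on heat shock factor HSF1, fell at 3 h. Its levels were 6.59 and 7.05 at 0 h, 7.16 and 6.99 at 0.5 h, 7.15 and 6.78 at 1 h, 6.18 and 5.51 at 3 h, and 6.79 and 6.67 at 6 h. Both 3 h arrays were the lowest of the 10, and the arrays of all other times overlapped those of 0 h. At 3 h IER5 averaged 5.84 ± 0.47, against 6.82 ± 0.33 at 0 h (SD, n = 2 each), a fall of -0.98 on the log2 scale (SE 0.244, adjusted p = 0.0206), at a time when 26.4% of tested probe sets were called lower. IER5 did not meet the submitters' fold rule at 3 h. It was also lower than at 1 h, by -1.12 (adjusted p = 0.0477), a call that 9 of the 10 leave-one-out fits ended. The value for 6 h against 3 h was 0.89, not called (adjusted p = 0.0711). Leaving out 0 h replicate 2 gave -0.74 for 3 h against 0 h (adjusted p = 0.109) and leaving out 3 h replicate 2 gave -0.64 (adjusted p = 0.112), neither of them called, nor was the change called without the filter or with the spike-in or 18S covariate, against 0.00724 to 0.385 over 19 alternatives. At 0.5, 1 and 6 h IER5 differed from 0 h by 0.26, 0.14 and -0.09 (adjusted p = 0.556, 0.713 and 0.828).

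Counted over the 5 tested members, the calls against 0 h were 0 higher and 1 lower at 0.5 h, 1 higher and 1 lower at 1 h, 1 higher and 1 lower at 3 h, and 4 higher and 0 lower at 6 h. Over all tested probe sets the shares called higher at these times were 1.92%, 4.14%, 2.53% and 4.07%, and the shares called lower were 15.1%, 24.2%, 26.4% and 21.6%. The 4 calls at 6 h were those of IER2, IER3, JUND and KLF10, of which IER3 passed the filter through its 6 h arrays alone and KLF10 through those of 0, 3 and 6 h. The 5 members are no full picture of the 10 genes, since the filter chose them. All 5 were called by the F test over the times (adjusted p = 0.00056 for KLF10 to 0.0223 for IER5), as were 39.6% of tested probe sets. In the fit without the filter the F test did not call IER2 (adjusted p = 0.148) or IER5 (0.182). It still called IER3 (0.026), JUND (0.0328) and KLF10 (0.00989). All comparisons with 0 h share the same 2 control arrays.

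**Figure D3:**
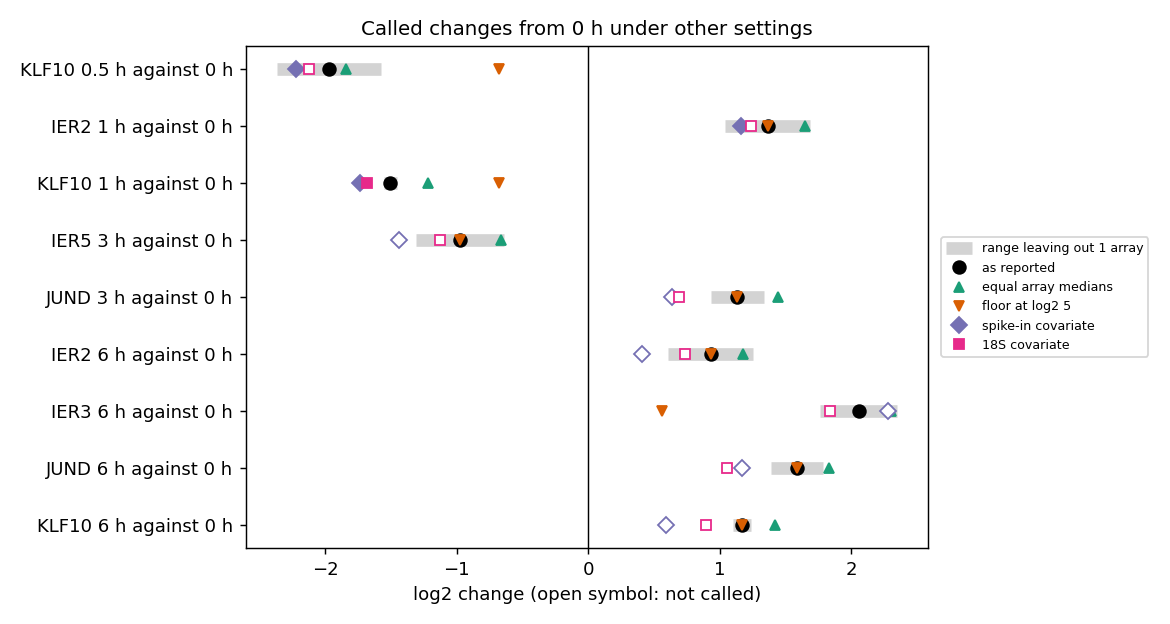
The 9 called changes from 0 h on the log2 scale (horizontal axis) as reported (black circles), with equal array medians, with a floor at 5 and with the spike-in or 18S level as covariate; open symbols were not called, and grey bars span the fits that left out 1 array. No value crossed 0; the floor shortened the KLF10 falls to -0.68 and the IER3 rise to 0.56.

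FOS, EGR1, JUN, JUNB and KLF6 are grouped here because all their probe sets stayed under the filter level on the 10 arrays. FOS, the partner of the JUN proteins and the classical early gene, lay between 2.29 and 2.36 on the 10 arrays, with 2.31 and 2.31 at 0 h, 2.31 and 2.33 at 0.5 h, and 2.32 and 2.36 at 1 h. The 4 probe sets of JUN ran from 2.29 to 3.38, and 1 of them had a single higher array at 1 h, 2.64 beside 2.35 in its replicate. JUNB, which can oppose JUN, had 4.19 and 4.11 at 0 h, 4.17 and 4.02 at 0.5 h, 4.31 and 4.30 at 1 h, 4.19 and 4.19 at 3 h, and 4.19 and 4.28 at 6 h. Its 1 h arrays were the highest of the 10 by a small margin, 0.16 above 0 h in a fit without the filter (adjusted p = 0.287). KLF6, a zinc finger factor of the KLF family, spanned at most 0.078 on the log2 scale in any of its 3 probe sets. These values do not show that the transcripts were absent or constant.

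**Figure D4:**
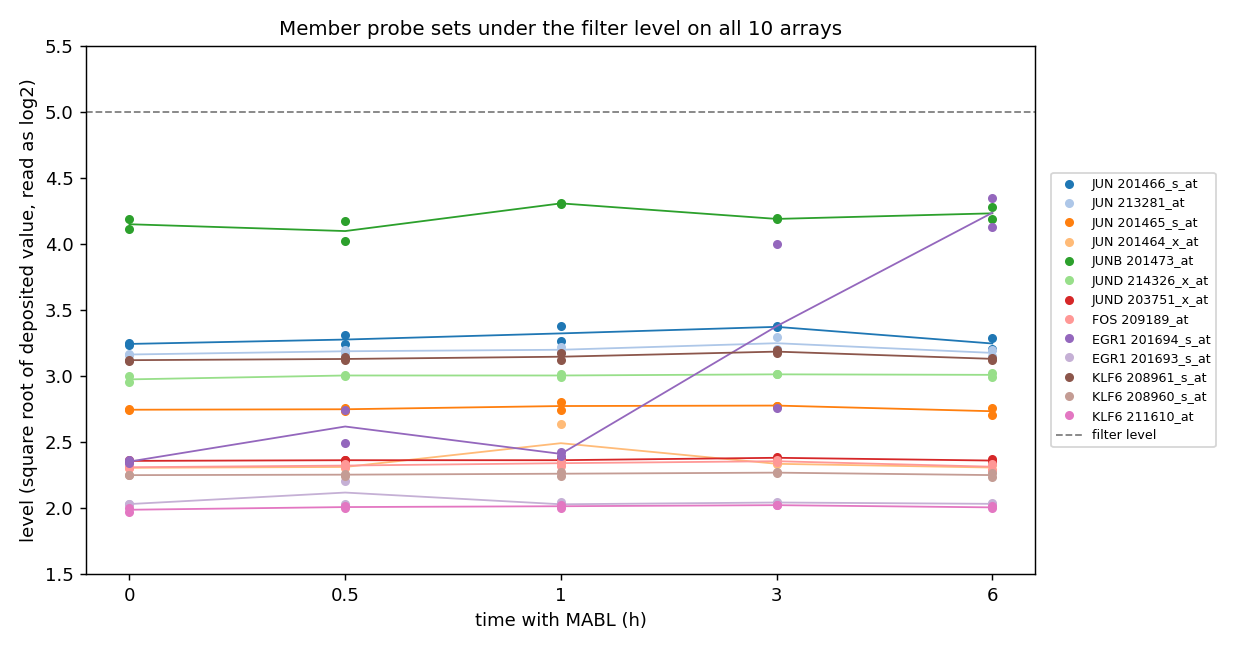
Level on each array (square root of the deposited value, read as log2) against time with MABL in hours for the 13 member probe sets under the filter level of 5 (dashed line) on all 10 arrays; points are arrays and lines join the means of 2 arrays. One EGR1 probe set read highest at 6 h, and 11 of the 13 spanned less than 0.3 over all arrays.

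EGR1 was the exception among these low probe sets. One of its 2 probe sets read 2.36 and 2.34 at 0 h, 2.75 and 2.49 at 0.5 h, 2.43 and 2.39 at 1 h, 4.00 and 2.76 at 3 h, and 4.13 and 4.35 at 6 h. Both 6 h arrays and 1 of the 3 h arrays stood apart from the rest, but all were under the filter level. In the fit without a filter the 6 h mean exceeded that of 0 h by 1.88 (SE 0.366, unadjusted p = 0.00194) and was not called (adjusted p = 0.0570). The other EGR1 probe set ran from 2.02 to 2.20 with no such change at 6 h (2.04 and 2.03, against 2.03 and 2.03 at 0 h).

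The wider early response was read through 81 further genes in 5 lists, of which 13 were tested through their brightest probe set. Genes with no probe set of a single symbol on the array could not be tested. Such a probe set existed for 11 of 13 other AP-1 and bZIP genes and 11 of 12 other early transcription factors. It existed for 23 of 24 feedback genes, 17 of 24 upstream genes and 8 of 8 genes of T-cell activation. Of 13 other AP-1 and bZIP genes, 1 was tested, BATF, an AP-1 factor of lymphocytes, and its level hardly varied (0.00 to 0.05 from 0 h, not called). Of 12 other early transcription factors 2 were tested, and 1 was called higher and 1 lower than at 0 h. Over all tested probe sets 8.91% were called higher and 38.8% lower at any of the 4 times. BHLHE40, a basic helix-loop-helix repressor also induced by hypoxia, read 2.65 to 2.75 on the 8 arrays up to 3 h, and 6.48 and 6.06 at 6 h. The rise over 0 h was 3.59 (SE 0.136, adjusted p = 9.64e-06). BHLHE40 passed the filter through its 6 h arrays alone, so that this difference was in part set by the filter. In the fit without the filter its adjusted p was 0.00073. With every value floored at 5, which the 0 h arrays do not reach, the rise was 1.27 (adjusted p = 0.00111). MYC, a growth-promoting factor and early gene, averaged 9.05 at 6 h, against 10.38 at 0 h, and fell by 1.33 (SE 0.107, adjusted p = 0.000498). Its fall at 3 h was -0.66 (adjusted p = 0.00435). The spike-in and 18S covariates ended the 6 h call of MYC (adjusted p up to 0.154) and not that of BHLHE40 (up to 0.00688 over 19 alternatives).

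Of 24 genes of feedback and mRNA decay 6 were tested, and over the 4 times 2 were called higher and 1 lower than at 0 h, against 8.91% of all tested probe sets called higher and 38.8% called lower at any of these times. TNFAIP3, an inhibitor of NF-kB signalling, was higher at 0.5 h, with 5.32 and 5.02, against 4.37 and 4.28 at 0 h (0.84, SE 0.138, adjusted p = 0.00751), and had 4.21 and 4.36 at 1 h. It passed the filter through its 0.5 h arrays alone, so that its difference from 0 h was in part set by the filter, and with a floor at 5 the difference was 0.17 (adjusted p = 0.332), not called. The call also ended without 0 h replicate 1 and with the 18S covariate (adjusted p up to 0.332 over 18 alternatives). ZFP36L2, an mRNA decay factor, rose by 0.76 at 3 h (SE 0.123, adjusted p = 0.00426), while its other tested probe set differed by 0.33 (adjusted p = 0.0520). MCL1, a short-lived survival factor of the BCL2 family, fell at all 4 times, most at 1 h, where it had 6.20 and 6.28, against 7.26 and 7.21 at 0 h (-0.997, SE 0.151, adjusted p = 0.00218). The call of ZFP36L2 ended with the spike-in and 18S covariates and that of MCL1 with the 18S covariate (adjusted p up to 0.322 and 0.0976 over 19 alternatives).

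Of 24 upstream kinases and factors, 17 had a probe set of a single symbol and 4 were tested, SRF, ELK1, MAP2K2 and RPS6KA2. Among these 4, 1 was called higher and 0 lower than at 0 h. Over all tested probe sets 8.91% were called higher and 38.8% lower at any of the 4 times, and 4.07% higher at 6 h. The 1 gene called was MAP2K2, a kinase that activates ERK, at 6 h (0.69, SE 0.142, adjusted p = 0.0103). Leaving out 0 h replicate 1 or 6 h replicate 1 ended that call, as did fitting without the filter or with the spike-in or 18S covariate (adjusted p up to 0.463 over 19 alternatives). SRF, the factor that binds CArG boxes, differed from 0 h by -0.39 to 0.38 and was not called. It was called lower at 6 h than at 3 h, with means of 4.39 and 5.16 (-0.77, adjusted p = 0.0312), as were 2.08% of tested probe sets. Of the 4 upstream genes, 1 was called higher at this step, as were 5.00% of tested probe sets. The 6 h mean of SRF was under the filter level of 5 and its 3 h mean above it, so that this difference was in part set by the filter. This step of SRF was singled out after its values were seen, and no alternatives are given for it. None of 8 early genes of T-cell activation, such as CD69 and IL2, reached the filter. The median changes of the tested feedback genes were 0.08, 0.02, 0.11 and 0.04 at 0.5, 1, 3 and 6 h and those of the upstream genes 0.22, 0.17, 0.12 and 0.14, against 0.02, -0.03, -0.15 and -0.14 over all tested probe sets.

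The courses most like each tested member were taken as the 3 genes with the highest Pearson correlation over the 10 arrays among 3684 tested probe sets of a single symbol, as a description. For JUND they were GNA15 (r = 0.977), DDAH2 (0.971) and SLC2A3 (0.919), and for IER3 they were PLAC8 (0.981), LONP1 (0.977) and ALDOC (0.970). For KLF10 they were TMEM59 (0.952), RPL24 (0.947) and RBPJ (0.946). For IER2 they were OAZ2 (0.935), TMEM80 (0.930) and HTRA2 (0.876), and for IER5 DNMT1 (0.934), NECAP2 (0.925) and ELAVL1 (0.921). The arrays share replicates and array-wide shifts, which enter all these values.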

How the data were processed

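The values are scores per probe set on an Affymetrix human expression array, as deposited by the authors. The submitters' processing notes name GCRMA, a method that subtracts background estimated from probe sequences, makes arrays comparable and summarises each probe set. Its version and the scale of the deposited values are not given in the sources used here. The scores reached 238.1, so their square roots, up to 15.43, were read as log2 expression; all folds depend on this reading.

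From 22283 probe sets, 68 controls were left out. The filter kept 4276 probe sets, standing for 2819 genes with a single symbol, updated to RefSeq symbols. limma 3.58.1 in R 4.3.3 (lmFit, eBayes) was fitted to all 10 arrays with time as the factor (5 residual and 3.06 prior degrees of freedom), with Benjamini-Hochberg adjustment within each comparison over all tested probe sets and calls at an adjusted p under 0.05. Arrays give no read depth, and their number limits the precision. The fit was tested on simulated data. Every member probe set was named; of each further list, genes called against 0 h were named, up to 3 per direction by the largest test statistic. The members, lists and tests were chosen with earlier results of these data known. Alternatives changed the scaling, filter, floor, scale, replicate block, covariates and the arrays included.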

Additional observations from a re-analysis of the deposited data

How the results depend on the processing

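The size of every change depends on reading square roots as log2 and on 2 arrays per time. Of the 14 called changes of single members, 1, the KLF10 fall at 1 h, kept its call under all 19 alternatives, and the cause of each loss was not tested. Levels under 5 limit what JUN, JUNB, FOS, EGR1 and KLF6 can show. The results carry replicate numbers 1 and 2 at every time, but the deviations of same-numbered arrays correlated between times at -0.231 to 0.147, so the numbers were not taken as pairs; with the replicate block the members called lower at 3 h against 1 h were 0 in place of 2, and no other count of member calls changed.

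With equal array medians and after quantile normalization applied again, the members called higher at 1 h were 3 and 2 in place of 1, and those called higher at 3 h against 1 h were 2 and 2 in place of 1; 4 and 3 in place of 2 were higher at 6 h against 3 h. Over all probe sets, equal array medians changed the calls at 1 h to 1389 higher and 834 lower, in place of 177 and 1036. With no filter, counts of higher calls were 0 at 1 h, 2 in place of 4 at 6 h, 0 at 3 h against 1 h and 1 at 6 h against 3 h, and those of lower calls 0 at 3 h and 0 at 3 h against 1 h. The filter at a deposited value of 36, under which IER3 was not tested, gave 3 in place of 4 higher at 6 h, 2 higher at 3 h against 1 h and 1 higher at 6 h against 3 h. The floor gave 1 higher at 6 h against 3 h and 0 lower at 3 h against 1 h. On log2 of the deposited values, higher calls were 2 at 6 h, 0 at 3 h against 1 h and 1 at 6 h against 3 h, and lower calls 0 at 3 h against 1 h. With the spike-in covariate, higher calls were 0 at 3 h, 6 h and 3 h against 1 h, and lower calls 0 at 3 h and at 3 h against 1 h. With the 18S covariate, higher calls were 0 at 1, 3 and 6 h, and lower calls 0 at 0.5 h, 3 h and 3 h against 1 h. Leaving out 1 array gave 2 to 4 higher at 6 h (2 without 0 h replicate 1), 0 to 1 higher at 3 h against 1 h, 1 to 3 higher at 6 h against 3 h, 0 to 1 lower at 3 h and 0 to 1 lower at 3 h against 1 h.

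Among changes that were not called, the sign turned for IER2 at 3 h against 0 h (-0.497 with the spike-in covariate, -0.032 with the 18S covariate, -0.19 to 0.453 leaving out 1 array) and for KLF10 at 3 h (0.184 with equal array medians, 0.14 after quantile normalization). It turned for IER5 at 1 h (-0.0068 with the spike-in covariate, -0.0885 to 0.378 leaving out 1 array), at 6 h (0.159 with equal array medians, 0.149 after quantile normalization, -0.323 to 0.144 leaving out 1 array) and at 1 h against 0.5 h (0.0467 with equal array medians, -0.296 to 0.0733 leaving out 1 array). It turned for IER3 at 0.5 h (-0.0542 with the 18S covariate, -0.185 to 0.317 leaving out 1 array) and at 3 h against 1 h (0.037 with the spike-in covariate). It also turned for JUND at 0.5 h (-0.0968 with the 18S covariate, -0.0023 to 0.396 leaving out 1 array) and at 1 h against 0.5 h (-0.124 to 0.439 leaving out 1 array).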
